A study of Homo sapiens with 4 samples.

Results

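The genes described here act in protein folding in the endoplasmic reticulum (ER), in the unfolded protein response and in export from the ER. The 56 genes were chosen by name, as 9 groups of known role, and all 56 were found among the 19626 genes of the deposited tables. Of these, 55 were among the 12157 genes tested. The remaining gene, DERL3, had 0, 0, 0 and 1 estimated counts in the 4 libraries.

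The measurement was RNA-seq of ES-2, a human ovarian clear cell carcinoma line that carries the YAP1-MAML2 fusion gene. The fusion joins the part of YAP1 that binds TEAD transcription factors to the activation domain of the coactivator MAML2. Cells in both groups had been transduced with pLKO.1 lentivirus in 2 rounds of 8 h. The virus carried a non-targeting shRNA (shCtl, 2 libraries) or 1 shRNA against MAML2 (shM2-3, 2 libraries), which targets the fusion and native MAML2 alike. The infections and the time of RNA isolation, 96 h after the first infection, are given as in the labels, and the study's methods give a shorter time and another infection schedule. The RNA came from cultures described as biological replicates grown independently. The comparison asked which transcripts differed after the fusion was depleted. The sequencing used only 1 cell line and 1 targeting shRNA, so in these data effects of depletion and of that shRNA itself cannot be told apart. The paper also used another shRNA against MAML2 and MAML2-knockout ES-2 cells. In these it measured selected genes by RT-qPCR, none of them among the genes described here.

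The library totals were between 20051083 and 23978660 estimated counts. MAML2, the targeted gene, stood at 8.61 and 8.26 RPKM (read counts scaled to transcript length and library size) in shCtl and at 3.11 and 2.998 in shM2-3. This was 36.2% of the shCtl level, and the value sums native MAML2 and the MAML2 part of the fusion. FN1, fibronectin, took 0.187% of counts in each shCtl library and 3.36% and 3.45% in the shM2-3 libraries. RPKM values sit slightly lower in shM2-3 than the fitted fold changes do. The median difference over all genes tested was -0.07 on the log2(RPKM + 0.1) scale and -0.0037 in the fit. The keratins KRT8, KRT7 and KRT18, the tested genes of the epithelial markers, fell in shM2-3 by 1.22, 1.26 and 0.68 on the log2 scale, whereas EPCAM, CDH1, PAX8, WT1, NAPSA and ESR1 were below 1 RPKM in every library, so these defining markers of ovarian epithelium were near 0 in this line. VIM and CDH2, taken as mesenchymal features of the line, were at 2873 and 2969 and at 36.5 and 37.1 RPKM in shCtl. Their log2 fold changes were -0.44 and 0.34. The part of the keratin change in the results that follow was not tested. The summed level of 6 fibroblast markers was 0.910 and 1.10 RPKM in shCtl and 1.72 and 1.66 in shM2-3. That of 6 leukocyte markers was 57.4 to 58.4 RPKM in shCtl and 40.0 to 41.1 in shM2-3, nearly all of it CD68. PTPRC, CD3E and CD79A were at or near 0. CD14 was higher in shM2-3, from 0.0777 and 0.102 RPKM to 0.890 and 0.866, and was not among the genes tested. LYZ was at 0.945 and 0.423 RPKM in shCtl and at 2.34 and 0.129 in shM2-3, and did not pass. In bulk RNA, fewer cells of a kind and less RNA per cell cannot be told apart.

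Secreted and membrane proteins enter the ER through the SEC61 channel, fold with the help of chaperones and disulfide-forming enzymes, and leave in vesicles coated by COPII. Proteins that fail to fold are returned to the cytosol and degraded. When unfolded proteins build up, the sensors IRE1, PERK and ATF6 start the unfolded protein response, which raises chaperone and degradation genes through ATF6 and spliced XBP1 and lowers translation through PERK. Part of that response acts through short promoter elements. The ER stress response element consists of CCAAT and CCACG separated by 9 bases, its second form of ATTGG and CCACG separated by 1 base, and the unfolded protein response element searched here reads TGACGTGG.

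These elements are shown because they are known from promoters of genes of the unfolded protein response. Of the 6 genes with a change of at least 2-fold in the comparison, HSPA5, CANX and SDF2L1 hold one in the promoter entry searched. MANF, SERPINH1 and EDEM3 hold none there. Sequences were read 5′ to 3′ on the gene's strand from RefSeq promoters (GRCh38.p14), in the 250 bases before the annotated gene start, and 49 of the 56 genes had an entry. Only the first listed entry of each gene symbol was searched, and 7811 repeated entries were left out. Capitals mark the match. Where a match lies on the other strand, it reads as the reverse complement. The ER stress response element was found in 7 of the 49 promoters:
HSPA5: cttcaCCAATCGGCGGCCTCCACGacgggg
HSP90B1, upstream copy: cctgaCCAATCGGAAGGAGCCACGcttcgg
HSP90B1, downstream copy: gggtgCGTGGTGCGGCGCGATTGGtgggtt
CALR: ccacgCGTGGTCGACCATCATTGGtcggtg
CANX: cccggCCAATCTTCACACTCCACGaagaat
XBP1: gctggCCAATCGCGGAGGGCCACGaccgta
CRELD2: cctctCGTGGCGAACTCGGATTGGgccata
ERO1B: gcccgCGTGGTCCCGCCTCATTGGccgccg
The HSPA5 window is chr9:125241385-125241414 on the minus strand, with the match from 66 to 48 bases before the start. The HSP90B1 windows are chr12:103930211-103930240 and chr12:103930316-103930345 on the plus strand, and that of CANX is chr5:179698773-179698802 on the plus strand. CALR's lies at chr19:12938379-12938408 and CRELD2's at chr22:49918549-49918578, both on the plus strand. XBP1's lies at chr22:28800597-28800626 and ERO1B's at chr1:236282177-236282206, both on the minus strand.

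The second form of the element was found in 3 of the 49 promoters:
SDF2L1: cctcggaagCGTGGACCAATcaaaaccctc
HERPUD1: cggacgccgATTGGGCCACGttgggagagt
HYOU1, upstream copy: gccccgtgaCGTGGTCCAATcccaggccga
HYOU1, downstream copy: ggcctgggaCGTGGTCCAATgagtacgcgc
These windows are chr22:21642105-21642134 (SDF2L1, plus strand), chr16:56932016-56932045 (HERPUD1, plus strand), and chr11:119057370-119057399 and chr11:119057264-119057293 (HYOU1, minus strand). The unfolded protein response element was found in HYOU1, where it overlaps the upstream copy above, and in SEC24A and KDELR3.

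The same search was made on both strands in 27305 RefSeq promoters of the same length, 1 per gene symbol. The first element was in 0.0806%, the second in 0.0513% and the unfolded protein response element in 0.667%. Among the 9571 of these that belong to tested genes, the shares were 0.146%, 0.104% and 0.763%. Any of these elements was present in 0.795% of the 27305 promoters and in 12 of the 49 promoters of the described genes (24.5%). The elements are known from promoters of such genes, so the larger share follows from how the genes were chosen and is no separate result. The TEAD motif GGAATG was in 11.9% of all promoters and in 3 of the 49 (6.12%), those of ERN1, CREB3L1 and CREB3L2. A match describes the letters in this window, and no binding was measured.

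Across the 55 tested genes, 4 were lower and 2 higher in shM2-3 with an adjusted p no higher than 0.05 and at least a 2-fold change. The 4 lower genes were the chaperones HSPA5, CANX and SDF2L1 and the secreted stress protein MANF. The 2 higher genes were SERPINH1, the collagen chaperone, and EDEM3, a mannosidase of ER-associated degradation. The 4 are 7.27% of the tested genes of the group, beside 8.93% of all genes tested (1086 genes), and the 2 are 3.64%, beside 9.24% (1123 genes). By this limit the group therefore held no larger share of changed genes than the transcriptome as a whole.

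Most differences among these genes were smaller than 2-fold and still larger than the replicate spread. At an adjusted p of 0.05 or less with no limit on fold, 28 genes were lower (50.9%, against 36.4% of all genes tested) and 18 higher (32.7%, against 36.3%), while 9 did not pass. With the fold limit at 1.5, 12 were lower (21.8%, against 18.9%) and 4 higher (7.27%, against 18.9%). The median log2 fold change of the 55 genes was -0.18, beside -0.0037 for all genes tested. These genes were abundant, with a median shCtl level of 44.4 RPKM against 7.24, and their fold changes were measured more precisely, with a median standard error of 0.0443 against 0.0844.

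**Figure D1:**
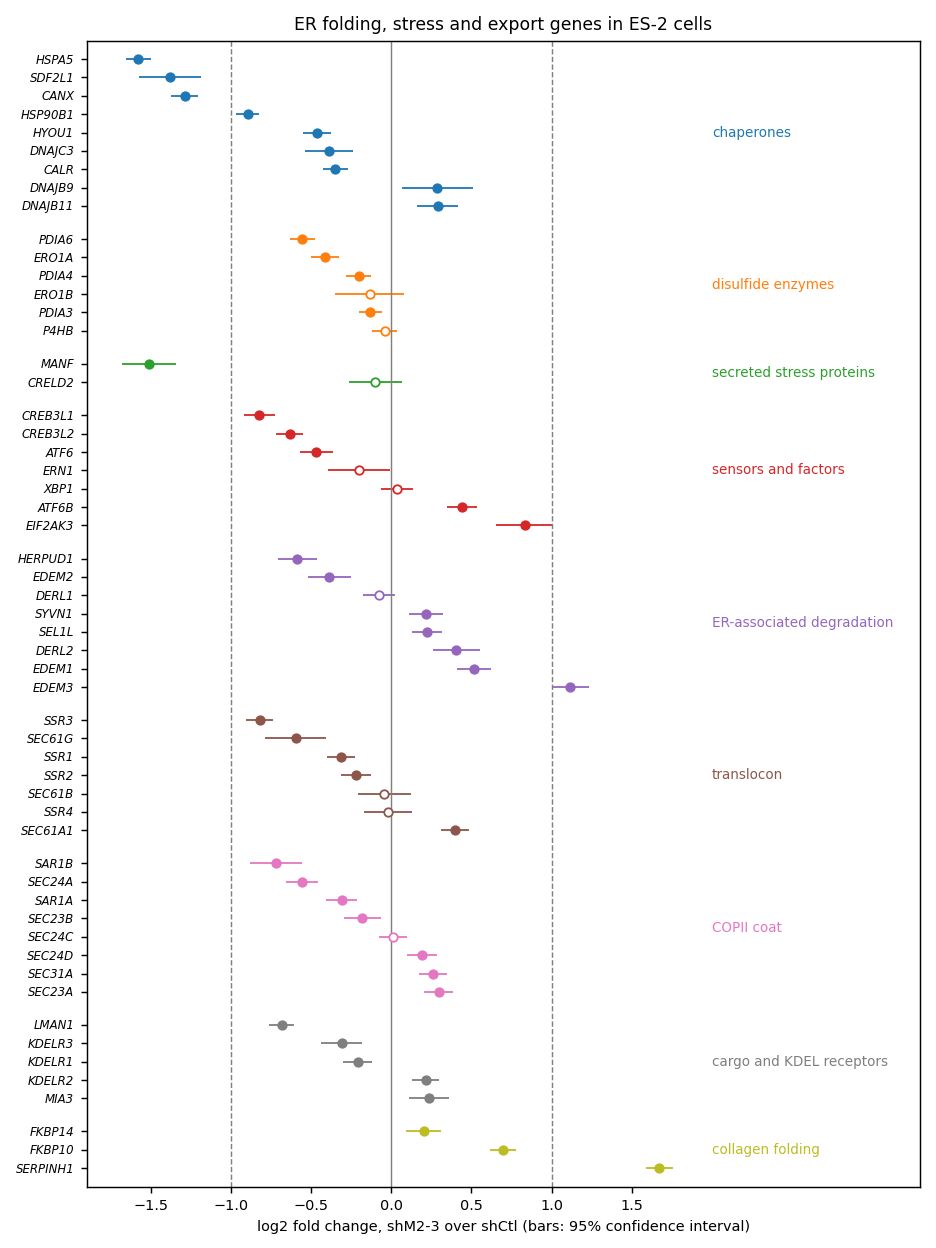
Log2 fold change of shM2-3 over shCtl (horizontal axis) for the 55 tested genes, grouped by role and sorted within each group, with 95% confidence intervals from the edgeR fit on 2 libraries per group. Filled points passed an adjusted p of 0.05, open points did not, and dashed lines mark a 2-fold change. Chaperones lie mostly to the left, reaching -1.58 for HSPA5, and the collagen folding genes lie to the right, reaching 1.67 for SERPINH1.

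Ranked by shCtl level, the most abundant genes were mostly lower. Of the 10 with the highest shCtl levels (CALR, HSP90B1, P4HB, HSPA5, PDIA3, CANX, PDIA4, SSR2, SEC61G and PDIA6), 9 were lower, none was higher and 1, P4HB, did not pass. The direction was also common among all tested genes at this shCtl level. Among the 190 tested genes at or above the same level (the 10 included), 116 were lower (61.1%) and 33 higher (17.4%). The other 45 genes of the group were split between 19 lower and 18 higher. These sets were chosen by the shCtl level alone, which is also the base of the fold change. Part of the lean to lower can follow from that choice. SERPINH1 and FKBP10, both higher, were below the level of the 10th gene (214.8 RPKM) in shCtl. In shM2-3 they were above it, at means of 387.3 and 266.7 RPKM. Summed over all 56 genes, the level was 6509 ± 60.5 RPKM (SD, n = 2) in shCtl and 5087 ± 91.1 in shM2-3, or 78.1% of shCtl. The RPKM sum over all 19626 genes was also lower, at 324319 and 325563 in shCtl and 287746 and 295653 in shM2-3. The summed percentages given here and below are not adjusted for this. Together the 56 genes took 2.21% and 2.22% of counts in the shCtl libraries and 1.70% and 1.71% in the shM2-3 libraries.

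Chaperones of the ER lumen fell in 7 of 9 cases and rose in 2. HSPA5, also known as BiP, is the main Hsp70 chaperone of the ER and a classical readout of ER stress. It lies at chr9:125234853-125241382 on the minus strand (hg38), and its exons overlap no other annotated gene. Its level was 466.8 and 468.3 RPKM in shCtl and 147.5 and 151.4 RPKM in shM2-3. The groups were far apart beside a difference of a few RPKM within each. The log2 fold change was -1.58 (SE 0.0354, adjusted p = 1.53e-13 edgeR quasi-likelihood test, Benjamini-Hochberg over all genes tested), a level 2.99-fold lower.

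CANX, a membrane-bound lectin that holds glycoproteins until they fold, was at 275.9 and 264.9 RPKM in shCtl and at 104.2 and 107.2 in shM2-3. Its log2 fold change was -1.29 (SE 0.0383, adjusted p = 2.67e-12). CALR, the soluble lectin of the same cycle, was the most abundant gene described, with 992.3 and 1020 RPKM in shCtl against 740.1 and 768.7 in shM2-3. Its change of -0.35 was smaller, although both lectins fell.

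SDF2L1, which works with a BiP cochaperone, was at 49.7 and 53.3 RPKM in shCtl and at 17.6 and 20.2 in shM2-3. The log2 fold change was -1.38 (SE 0.0891, adjusted p = 9.21e-09). HSP90B1, the ER form of Hsp90, was at 808.6 and 791.8 RPKM in shCtl and at 410.8 and 410.2 in shM2-3, a log2 fold change of -0.90 that fell short of 2-fold. HYOU1, which exchanges the nucleotide of BiP, and DNAJC3, a J-domain cochaperone, fell by 0.46 and 0.39 on the log2 scale. The other J-domain cochaperones moved the opposite way. DNAJB11 was at 33.6 and 34.7 RPKM in shCtl and at 38.5 and 41.4 in shM2-3 (log2 fold change 0.29), and DNAJB9 at 5.77 and 5.56 against 6.70 and 6.499 (0.29, adjusted p = 0.0233, the highest adjusted p among the genes that passed). The call of DNAJB9 was lost in 5 of 12 alternative fits. The summed chaperone level was 2703 ± 2.44 RPKM (SD, n = 2) in shCtl and 1533 ± 28.4 in shM2-3, which is 56.7% of shCtl.

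The disulfide isomerases and oxidases changed less. Of 6 genes, 4 were lower and none was higher. PDIA6, an isomerase, had the lowest log2 fold change of the group at -0.56 (SE 0.0363), with 213.6 and 215.9 RPKM in shCtl and 139.5 and 139.6 in shM2-3. ERO1A, the oxidase that recharges the isomerases, fell by 0.41 on the log2 scale, PDIA4 by 0.20 and PDIA3, which acts on glycoproteins held by the lectins, by 0.13. P4HB, protein disulfide isomerase itself and a subunit of collagen prolyl 4-hydroxylase, was at 539.9 and 563.7 RPKM in shCtl and at 504.1 and 520.8 in shM2-3. Its log2 fold change of -0.04 had a 95% interval from -0.12 to 0.04 (adjusted p = 0.332), which bounds any change well inside that of PDIA6. P4HB did pass in 4 of 12 alternative fits, with a lowest value of -0.11. ERO1B, the second oxidase, did not pass either (-0.13, 95% interval -0.35 to 0.08). The summed level in shM2-3 was 84.7% of that in shCtl.

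The secreted stress proteins diverged. MANF, a small protein of the ER that is also secreted under stress, was at 142.2 and 146.0 RPKM in shCtl and at 43.0 and 53.7 in shM2-3. Its log2 fold change was -1.51 (SE 0.0786, adjusted p = 9.60e-10), with the shM2-3 libraries further apart than those of shCtl and no overlap between groups. CRELD2, likewise induced by ER stress in many cells, was at 17.2 and 17.1 RPKM in shCtl and at 15.7 and 14.9 in shM2-3. Its log2 fold change was -0.10 (95% interval -0.27 to 0.07, adjusted p = 0.254). CRELD2 has the ER stress response element shown above, and MANF had no match to any of the searched elements in its window.

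**Figure D2:**
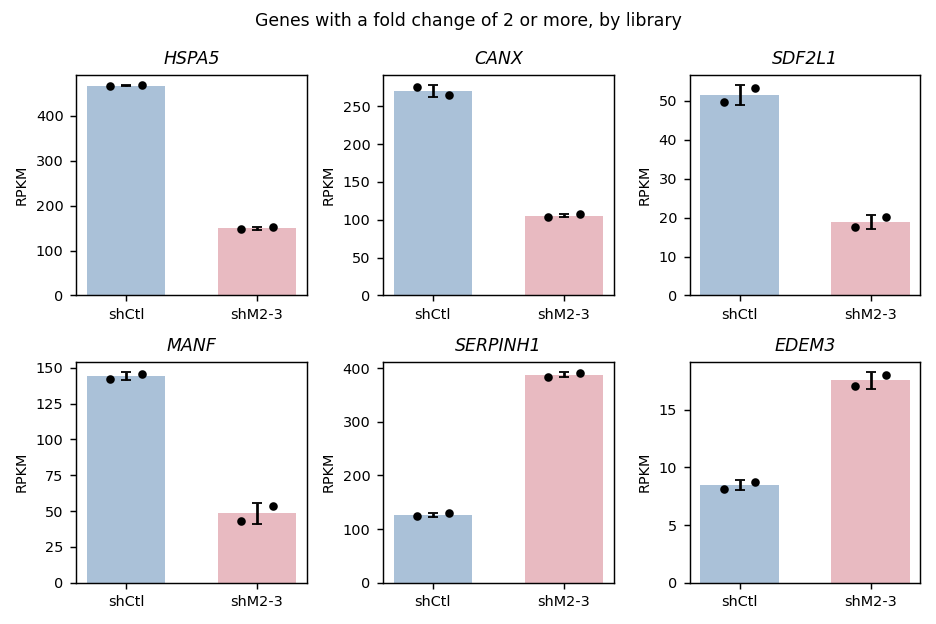
RPKM (vertical axes, each from 0) in the shCtl and shM2-3 libraries for the 6 genes with a fold change of 2 or more. Points are libraries, bars are means and error bars are SD (n = 2). HSPA5, CANX, SDF2L1 and MANF were lower and SERPINH1 and EDEM3 higher in both shM2-3 libraries than in either shCtl library.

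The stress sensors and transcription factors went both ways, with 3 lower, 2 higher and 2 that did not pass. EIF2AK3, which encodes the sensor PERK, had the highest log2 fold change of the group at 0.83 (SE 0.0817, adjusted p = 6.88e-07), from 4.58 and 5.31 RPKM in shCtl to 8.40 and 8.43 in shM2-3. ERN1, which encodes the sensor IRE1, was at 3.08 and 2.87 RPKM in shCtl and at 2.52 and 2.42 in shM2-3, and its log2 fold change of -0.20 missed the threshold (adjusted p = 0.0553). ATF6, the sensor released from the membrane as a transcription factor, fell by 0.47 on the log2 scale, from 14.3 and 14.99 RPKM to 10.1 and 10.2. Its paralog ATF6B rose by 0.44, from 44.1 and 44.6 to 57.2 and 58.1 RPKM.

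XBP1, the factor whose mRNA IRE1 splices, was at 57.7 and 59.3 RPKM in shCtl and at 56.5 and 57.9 in shM2-3. Its log2 fold change was 0.03 (95% interval -0.06 to 0.13, adjusted p = 0.521), with a sign that turned under 3 of the alternatives, so no direction can be given. Gene counts do not separate the spliced from the unspliced form. CREB3L1 and CREB3L2, membrane-bound factors related to ATF6 that act on secretory and collagen genes, both fell. CREB3L1 had the lowest log2 fold change of the group at -0.82 (SE 0.0441, adjusted p = 1.31e-09), from 55.1 and 55.9 RPKM to 30.2 and 29.7. CREB3L2 went from 46.4 and 45.5 RPKM to 28.4 and 28.2, a log2 fold change of -0.63.

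ER-associated degradation had 5 of 8 tested genes higher, 2 lower and 1 that did not pass, beside 36.3% higher and 36.4% lower over all genes tested. No role group had more higher genes by number, though all 3 collagen folding genes were higher. Of 16 other degradation genes, given below, 8 were higher and 5 lower. EDEM3, one of the mannosidases that trim glycans of misfolded proteins, was at 8.14 and 8.76 RPKM in shCtl and at 17.0 and 18.0 in shM2-3. The log2 fold change was 1.12 (SE 0.0543, adjusted p = 4.61e-10), with a 95% interval that began at 1.00, and it was 0.97 when fitted on log2(RPKM + 1). Its relative EDEM1 rose by 0.52 on the log2 scale, from 12.5 and 13.3 RPKM to 17.8 and 17.6, while EDEM2 fell by 0.39, from 31.7 and 31.2 to 22.1 and 23.9. The 3 EDEM genes therefore did not move together.

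HERPUD1, a stress-induced organizer of the degradation complex, had the lowest log2 fold change of the group at -0.59 (SE 0.0554), from 27.5 and 29.2 RPKM to 18.4 and 17.7. The core of that complex moved little. SEL1L and SYVN1, the adaptor and the ubiquitin ligase, both rose by 0.22 on the log2 scale. DERL2, a membrane component, rose by 0.41, and DERL1 did not pass (-0.08, 95% interval -0.18 to 0.02). The summed level of the group in shM2-3 was 99.1% of shCtl, with rises and falls of individual genes offsetting each other. SYVN1 overlaps exons of FAU and MRPL49 in the annotation, and its value is less certain for that reason.

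At the translocon, 4 of 7 genes were lower, 1 was higher and 2 did not pass. SSR3, a subunit of the complex that assists signal sequences at the channel, had the lowest log2 fold change at -0.82 (SE 0.0381, adjusted p = 2.89e-10), from 135.3 and 136.6 RPKM to 72.7 and 74.3. Its partners SSR1 and SSR2 fell by 0.31 and 0.22 on the log2 scale, and SSR4 did not pass (-0.02, 95% interval -0.17 to 0.13). Subunits of 1 complex thus ranged from an evident fall to no detectable change. The channel itself was as uneven. SEC61A1, the pore subunit, was at 82.2 and 83.8 RPKM in shCtl and at 103.0 and 106.0 in shM2-3, a log2 fold change of 0.40 (SE 0.0401). SEC61G, a small subunit, went from 216.9 and 219.9 RPKM to 120.6 and 155.9, a log2 fold change of -0.60 (SE 0.0881, adjusted p = 3.71e-05) with widely spaced shM2-3 libraries. SEC61B did not pass (-0.04, 95% interval -0.21 to 0.12).

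The COPII coat and its GTPase had genes on both sides. Of 8 genes, 3 were higher, 4 lower and 1 did not pass, and the summed level in shM2-3 was 99.7% of shCtl. SEC23A, of the inner coat, was at 55.7 and 53.4 RPKM in shCtl and at 64.0 in both shM2-3 libraries, a log2 fold change of 0.30 (SE 0.0420), while its paralog SEC23B fell by 0.18, a call lost without shCtl replicate 2 (-0.13, adjusted p = 0.0840). Among the SEC24 paralogs, which select cargo, SEC24A went from 20.4 and 19.99 RPKM to 12.9 and 13.3 (log2 fold change -0.56), SEC24D rose by 0.19 and SEC24C did not pass (0.01, 95% interval -0.08 to 0.10). SEC31A, of the outer coat, rose by 0.26. SAR1A fell by 0.31, and SAR1B, the other form of the GTPase that starts the coat, had the lowest log2 fold change at -0.72 (SE 0.0740, adjusted p = 1.11e-06), from 6.20 and 5.93 RPKM to 3.58 and 3.46. SEC24A and SAR1B overlap each other in the annotation, and in these unstranded libraries reads from the shared stretch cannot be assigned to either.

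Of the 5 cargo and retrieval receptors, 3 were lower and 2 higher. LMAN1, which carries glycoproteins such as coagulation factors to the Golgi, went from 145.3 and 144.4 RPKM to 86.8 and 85.4 (log2 fold change -0.68, SE 0.0365, adjusted p = 1.26e-09). MIA3, also known as TANGO1, which loads bulky collagens at exit sites, was at 13.1 and 11.9 RPKM in shCtl and at 14.6 and 13.4 in shM2-3, a log2 fold change of 0.23 (adjusted p = 0.00216) that was lost in 2 of 12 alternative fits. The KDEL receptors, which return escaped chaperones to the ER, split. KDELR2 rose by 0.21 on the log2 scale, from 122.6 and 121.1 RPKM to 135.4 and 134.4, whereas KDELR1 fell by 0.21 and KDELR3 by 0.31. The summed level in shM2-3 was 83.1% of shCtl.

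Collagen folding genes were higher in shM2-3 in 3 of 3 cases. SERPINH1 encodes HSP47, the chaperone of procollagen, and lies at chr11:75562056-75572783 on the plus strand (hg38) with no other annotated gene over its exons. It was at 124.5 and 129.8 RPKM in shCtl and at 384.0 and 390.6 in shM2-3, a 3.19-fold rise (log2 fold change 1.67, SE 0.0395, adjusted p = 2.45e-13). FKBP10, a prolyl isomerase of collagen, went from 168.8 and 175.9 RPKM to 267.4 and 266.0 (log2 fold change 0.70, SE 0.0377), and FKBP14, another ER prolyl isomerase, from 14.3 and 14.1 to 15.6 and 15.7 (0.20). The summed level was 313.7 ± 8.65 RPKM (SD, n = 2) in shCtl and 669.7 ± 3.79 in shM2-3, which is 213% of shCtl. The fibroblast markers COL1A2, COL3A1, DCN, LUM and POSTN, whose cells make much collagen, were each below 1 RPKM in every library, and PDGFRB, the 1 tested gene of that list, rose from 0.482 and 0.662 RPKM to 1.20 and 1.37 (log2 fold change 1.23, adjusted p = 4.47e-05). The part of such cells in the rise was not tested.

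**Figure D3:**
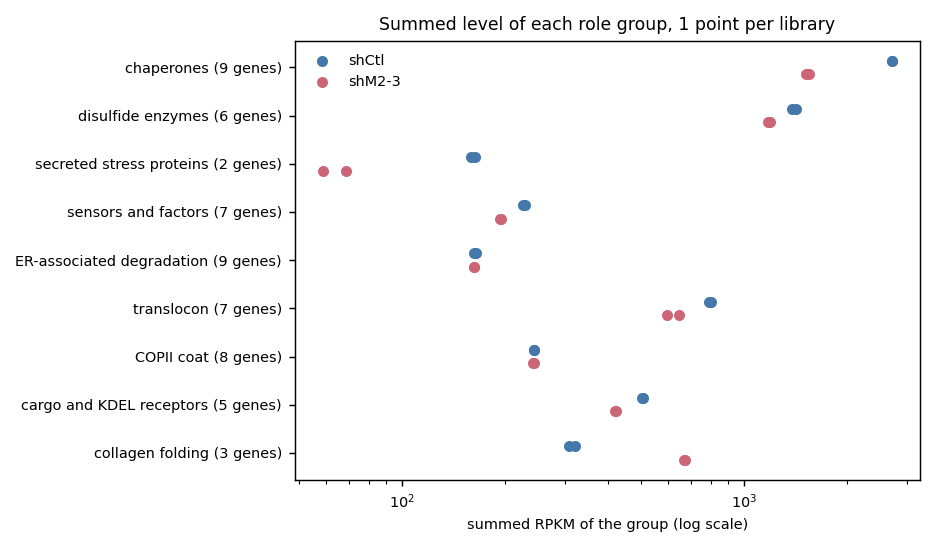
Summed RPKM of each role group (horizontal log axis) in the 2 shCtl and 2 shM2-3 libraries, 1 point per library. Chaperones (56.7% of shCtl) and secreted stress proteins (39.5%) lie lower in shM2-3, collagen folding genes (213%) lie higher, and ER-associated degradation (99.1%) and the COPII coat (99.7%) nearly coincide. These percentages are not adjusted for the lower RPKM sum over all genes in shM2-3.

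Set beside the promoter letters, the 12 genes with at least 1 of the stress elements had a median log2 fold change of -0.51. Of these, 9 were lower, none was higher, and ERO1B, CRELD2 and XBP1 did not pass. Of the 37 genes with a promoter entry and no element, 18 were lower, 14 higher and 5 did not pass, with a median of -0.18. Over all tested genes with any of the elements (96, the 12 included), 50 were lower (52.1%) and 29 higher (30.2%), with a median of -0.24, and over all 9571 tested genes with a promoter entry 36.4% were lower and 36.9% higher. The promoters that hold the same first element in the list above belong to genes between -1.58 (HSPA5) and 0.03 (XBP1). Over all 14 tested genes with that element, those listed included, 8 were lower, 2 higher and 4 did not pass, with values up to 1.28. Genes with the element thus varied widely among themselves.

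**Figure D4:**
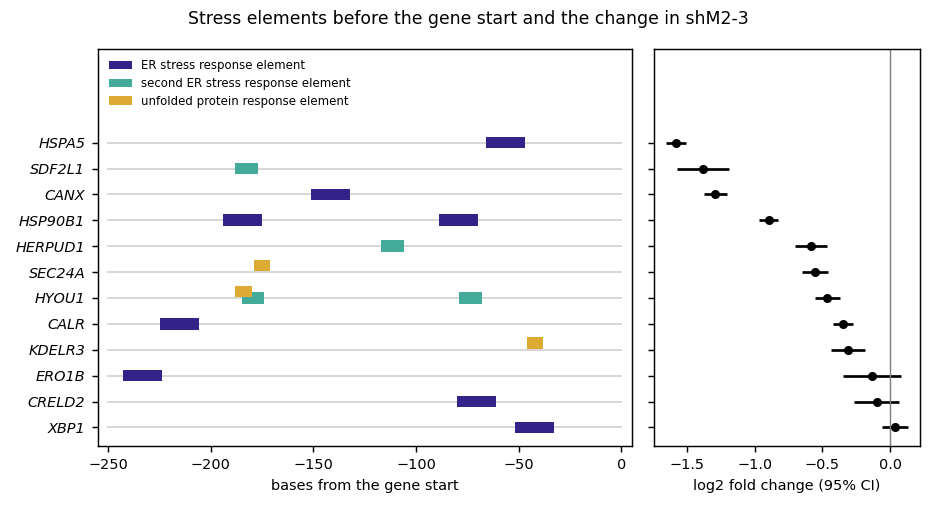
Left, position of each stress element in bases from the annotated gene start (0) for the 12 genes that hold one. Right, the log2 fold change of shM2-3 over shCtl with its 95% confidence interval (2 libraries per group). Genes run from HSPA5 (-1.58) to XBP1 (0.03), and 9 of 12 intervals lie below 0.

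The rest of the same machinery was described from 124 further genes listed by function, of which 119 were tested. Of these, 48 were higher, 48 lower and 23 did not pass at an adjusted p of 0.05, beside 36.3% higher and 36.4% lower over all genes tested, and the median log2 fold change was -0.04. At 2-fold, 7 of 119 were lower and 1 was higher, beside 8.93% and 9.24% of all genes tested. The lower ones included DDIT3, the stress factor CHOP, which went from 18.8 and 19.5 RPKM to 7.66 and 7.43 (log2 fold change -1.28), and PPP1R15A, which restores translation after PERK has acted, from 64.0 and 63.0 to 24.5 and 26.4 (-1.25). Among the 8 genes downstream of PERK and ATF4, 4 were lower, 2 higher and 2 did not pass, and CHAC1, also induced by this branch, rose by 0.95 from 2.30 and 3.53 RPKM to 4.87 and 5.96.

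SIL1, which like HYOU1 exchanges the nucleotide of BiP, went from 27.5 and 27.2 RPKM to 12.1 and 13.2 (-1.05, or -0.98 without shM2-3 replicate 1, short of 2-fold). Among prolyl isomerases of the ER, FKBP11 was at 49.6 and 55.7 RPKM in shCtl and 17.6 and 18.5 in shM2-3 (-1.48), and FKBP9 was at 27.5 and 28.5 against 53.1 and 54.6 (1.01). FKBP9 stood at the 2-fold limit, and its value was below 1.00 in 7 of 12 alternative fits, at 0.92 in the lowest. Over the 19 other folding enzymes, 9 were higher, 8 lower and 2 did not pass.

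Collagen modifying enzymes went both ways. P3H2, a prolyl 3-hydroxylase, went from 19.6 and 20.9 RPKM to 2.38 and 2.27 (log2 fold change -3.06, SE 0.0783, adjusted p = 5.63e-13). PLOD2, the lysyl hydroxylase that directs collagen crosslinks, went from 211.9 and 211.7 to 84.2 and 81.6 (-1.29), and P3H4 was highest of the list at 0.75. Of 11 tested, 4 were higher, 4 lower and 3 did not pass.

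The remaining lists stayed within 2-fold with 1 exception. The oligosaccharyltransferase list ran from STT3A (-0.43) to MAGT1 (0.69), with 5 of 10 genes higher and 3 lower. Other translocation genes ran from SEC61A2 (-0.62) to SPCS2, a signal peptidase subunit (0.94), with 9 of 18 higher and 7 lower. Other degradation genes ran from UBE2J1 (-0.56) to FAF2 (0.74), with 8 of 16 higher and 5 lower. The COPI coat, which carries proteins back to the ER, had 5 of 9 genes lower and 1 higher, from COPB1 (-0.59) to COPA (0.10). Among other transducers and the proteases that cut ATF6, 3 of 7 were higher and 1 lower, from MBTPS2 (-0.44) to MBTPS1 (0.60). Other COPII, exit site and cargo receptor genes had 11 of 21 lower and 7 higher, with SEC31B highest at 0.92. The exception was SEC16B, of the exit sites, which had 256 and 239 estimated counts in shCtl and 148 and 47 in shM2-3 (log2 fold change -1.503, SE 0.301, adjusted p = 0.000519). The shM2-3 libraries differed from each other for SEC16B, and leaving out shM2-3 replicate 1 gave a log2 fold change of -2.46. Leaving out shM2-3 replicate 2 (-0.96) or fitting limma on log2(RPKM + 1) (-0.85) brought it short of 2-fold.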

How the data were processed

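Per the labels and the study's methods, RNA was sequenced from unstranded libraries as paired reads of 150 bases. The authors aligned reads to hg38 with HISAT2 (2.0.4), removed ambiguous and poorly mapped reads, and quantified RefSeq genes in Partek (7.18). They deposited estimated counts, which were not normalized and of which 42.6% to 48.8% per library were whole numbers (within 1e-06), and RPKM values, which the authors computed by scaling to gene length and library size. The order of the submitters' steps beyond this is not given in the sources used here.

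For testing, the estimated counts were rounded and passed to edgeR 4.0.16 under R 4.3.3 (glmQLFit and glmQLFTest, TMM scaling, group as the only term). The test took genes that exceeded 1 RPKM in 1 library or more, and p-values were adjusted over all 12157 by Benjamini-Hochberg. A gene was called at an adjusted p of 0.05 or less, with a fold change of 2 or more where stated. "Rose", "fell", "higher" and "lower" refer to the adjusted p. The standard error is the log2 fold change divided by the square root of F. The script was tested on simulated data. Replicates were distinct libraries, with a chi-square per degree of freedom of 3.56 in shCtl and 4.18 in shM2-3 over 11697 genes with 20 or more counts. An SD over 2 libraries is only a rough measure of spread.

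Alternatives were DESeq2 1.42.0, total counts in place of TMM, a likelihood ratio test, limma 3.58.1 on log2(RPKM + 0.1) and log2(RPKM + 1), no filter, filterByExpr, a block for the replicate number, and leaving out each library in turn. The genes, their roles and the further lists were chosen with earlier results of these data known, so no test was run over them as a set. Genes called at 2-fold and the highest and lowest of each role group are given in every library, others by fold change, and of the further lists those called and the extremes. By GENCODE 44, exons of 34 of the 56 genes overlap another gene, 32 of them on the other strand. The limit given for SYVN1 holds for all 34, among them CANX, HSP90B1, ATF6B, SEC61A1, SSR4, KDELR2 and KDELR3. Promoters of PDIA3, DERL1, DERL3, SEC24D, KDELR2, FKBP10 and FKBP14 were not analysed here.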

Additional observations from a re-analysis of the deposited data

How the results depend on the processing

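Of 660 comparisons of a single gene's log2 fold change (55 genes in 12 alternative fits), 649 kept their direction and side of the 2-fold limit. The sign turned for XBP1 with total counts (-0.00185) and with limma on log2(RPKM + 0.1) and log2(RPKM + 1) (-0.0324 and -0.0319). It turned for SEC24C with total counts (-0.0245), both limma fits (-0.0549 and -0.0537), no filter (-0.0200) and filterByExpr (-0.00585). With a library left out, SEC24C ran from -0.00397 to 0.0286 and SSR4 from -0.0991 to 0.0599. The cause of these turns was not tested. Some genes that did not pass in the main fit passed in alternatives. P4HB did so with total counts, both limma fits and no filter, and DERL1 with total counts and both limma fits. CRELD2 and SEC61B passed with both limma fits, and ERN1 with total counts, no filter and filterByExpr. The log2 fold change of ERN1 also depended on single control libraries, at -0.15 without shCtl replicate 1 and -0.25 without shCtl replicate 2. EDEM3 was at 0.97 with limma on log2(RPKM + 1), which left 1 of the 56 genes called higher and 596 of all genes in place of 1123. A fold limit of 1.5 called 2296 genes higher and 2302 lower (the 56 genes, 4 and 12; the further genes, 10 and 12), and no fold limit 4414 and 4430 (18 and 28; 48 and 48). For the further genes, total counts, both limma fits, no filter and filterByExpr left 0 called higher at 2-fold in place of 1, FKBP9, though its adjusted p stayed at or below 6.37e-06, and leaving out a library gave between 0 and 2. The median of the 55 genes was -0.24 with limma on log2(RPKM + 0.1) and ran from -0.20 to -0.13 with a library left out, and that of all genes was -0.0683 and -0.0588 in the limma fits. Replicates shared only a number (correlation of same-numbered deviations -0.0306). With the replicate block, 2 of the 56 genes were called higher and 4 lower, as without it, and the median was -0.18. Precision was lowest for weakly expressed genes such as ERO1B (SE 0.0994) and DNAJB9 (SE 0.104).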
